A study of Mus musculus with 2 samples.

Results

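The genes described here are 10 genes of the integrated stress response, Atf4, Ddit3, Trib3, Chac1, Asns, Nupr1, Slc7a11, Sesn2, Psat1 and Atf5. They were chosen by symbol, and they are 10 of the 32285 genes in the count files. They take up 11 lines there, because the symbol Ddit3 is given to a pair of identifiers. GL261 is a mouse glioma cell line from the strain C57BL/6, labelled as an astrocytoma. Adherent cells were grown in DMEM with fetal bovine serum and were detached with trypsin near confluency. Neurosphere cells were grown for 12 days in the same medium with B-27, Fibroblast Growth Factor and Epidermal Growth Factor added, each factor at 20 ng/mL, and the spheres were broken up with trypsin and trituration. Both suspensions were frozen before scRNA-Seq, and each culture gave 1 library.

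The integrated stress response begins when one of several kinases senses a stress, such as unfolded protein in the endoplasmic reticulum (ER), a lack of amino acids or heme, or double-stranded RNA, and phosphorylates the translation factor eIF2α. Most translation then slows, while open reading frames upstream of the coding sequence let ribosomes reach that of ATF4, a transcription factor that switches on genes for amino acid supply and redox balance and, when the stress lasts, the gene of the factor CHOP. Tumor cells that outgrow their supply of oxygen and amino acids are known to use this pathway.

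ATF4 forms dimers with C/EBP factors and binds DNA at C/EBP-ATF response elements. The letters TGATGNAA, where N is any base, were searched as such an element on both strands (reverse complement TTNCATCA) in the RefSeq promoter windows of GRCm38.p6, which run from 250 bases before to 50 bases after each start site. All 10 genes had a window, 12 windows in all, and 5 of the 10 genes held a match. Of all 32851 windows, 3.97% held one, and of all 27025 genes, 4.51%. The matched sites are shown because these genes are read as targets of ATF4. Each is printed 5′ to 3′ on the strand of its gene, with the matched letters in capitals.
Trib3: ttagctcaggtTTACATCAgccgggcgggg
Chac1: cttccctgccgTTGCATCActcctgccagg
Asns: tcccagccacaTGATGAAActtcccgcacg
Nupr1: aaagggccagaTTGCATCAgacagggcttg
Slc7a11, first site: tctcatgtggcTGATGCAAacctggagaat
Slc7a11, second site: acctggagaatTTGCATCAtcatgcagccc

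The Trib3 sequence lies on the minus strand at chr2:152344028-152344057, and its matched letters begin 14 bases after the RefSeq start site, though they lie upstream of the GENCODE start of this gene. The Chac1 sequence lies on the plus strand at chr2:119351038-119351067, with the first matched base at position -193 from the start site. The Asns sequence lies on the minus strand at chr6:7693214-7693243, with the match at position -23 from the RefSeq start, inside the longer GENCODE span. For Nupr1 the window is on the minus strand at chr7:126625562-126625591, and the match is at position -110, upstream of the RefSeq start but inside the longer span that the GENCODE annotation gives this gene. The Slc7a11 sequences lie on the minus strand at chr3:50443661-50443690 and chr3:50443642-50443671 and overlap, with matches at positions -66 and -47. No match was found in the windows of Atf4, Ddit3, Sesn2, Psat1 and Atf5, which says only that these letters are not in those windows. A match is a description of the letters, not of a bound site.

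A unique molecular identifier (UMI) marks a single captured transcript. After the mitochondrial and ribosomal genes and the poor cells were removed, 5051 adherent cells with 46290996 UMIs and 4276 neurosphere cells with 64943938 UMIs were kept, with a median of 8260 and 13198.5 UMIs per cell. The median mitochondrial share of UMIs was 2.02% in kept adherent cells and 3.97% in kept neurosphere cells. The libraries shared 12 cell barcodes, 9 of them among kept cells. Of 10 astrocyte and glioma markers, 8 had at least 50 UMIs, 1 was at 0 in each library, and their summed level was 6604 CPM for adherent cells and 2999 CPM for neurospheres. The intermediate filament gene Vim (5583 and 1763 CPM), Sox2 (209 and 180.2 CPM), the glutamate transporter gene Slc1a3 (370 and 80.5 CPM) and Olig2 (69.8 and 465 CPM) were present, while the astrocyte genes Gfap (0.648 and 0.416 CPM) and Aqp4 (0 UMIs in both) were near or at 0. Of 10 markers of immune, endothelial and red blood cells, 2 had at least 50 UMIs (Pecam1 and Hba-a1), 4 were at 0 UMIs in adherent and 5 in neurosphere cells, and their sum was 4.69 and 3.62 CPM.

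Levels are given as CPM, the UMIs of a gene in every 1000000 UMIs on the genes left, summed over all kept cells of a library. Differences are log2 ratios of the neurosphere to the adherent CPM. With a single library for each culture, no difference could be tested, the 95% intervals cover counting error only, and culture cannot be told apart from library, depth, growth factors or the way the cells were detached. A gene over 2-fold higher or lower is called so by size alone.

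As a group, these genes stood lower in neurosphere than in adherent cells. Together they held 1912 CPM in adherent cells (95% Poisson interval 1900 to 1925 CPM, 88512 UMIs) and 895 CPM in neurosphere cells (888 to 902 CPM, 58123 UMIs). Of the 10 genes, 5 were over 2-fold lower in neurosphere cells (Nupr1, Ddit3, Slc7a11, Asns and Trib3, the last of which lost the call when the total kept mitochondrial and ribosomal UMIs), against 11.7% of the 14654 genes that had 50 or more UMIs summed over the libraries. None of the 10 was over 2-fold higher, against 21.7% of all genes, and 33.4% of all genes passed the fold in one direction or the other. The median log2 fold change of the 10 genes was -0.84, and that of all genes was 0.32. All 10 genes lay below the median of all genes, and 9 lay below 0. TMM scaling moved every log2 fold change by -0.22, and a total that kept mitochondrial and ribosomal UMIs shifted each by 0.22. The intervals of the other 5 genes (Atf4, Atf5, Psat1, Chac1 and Sesn2) all lay inside 2-fold.

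**Figure D1:**
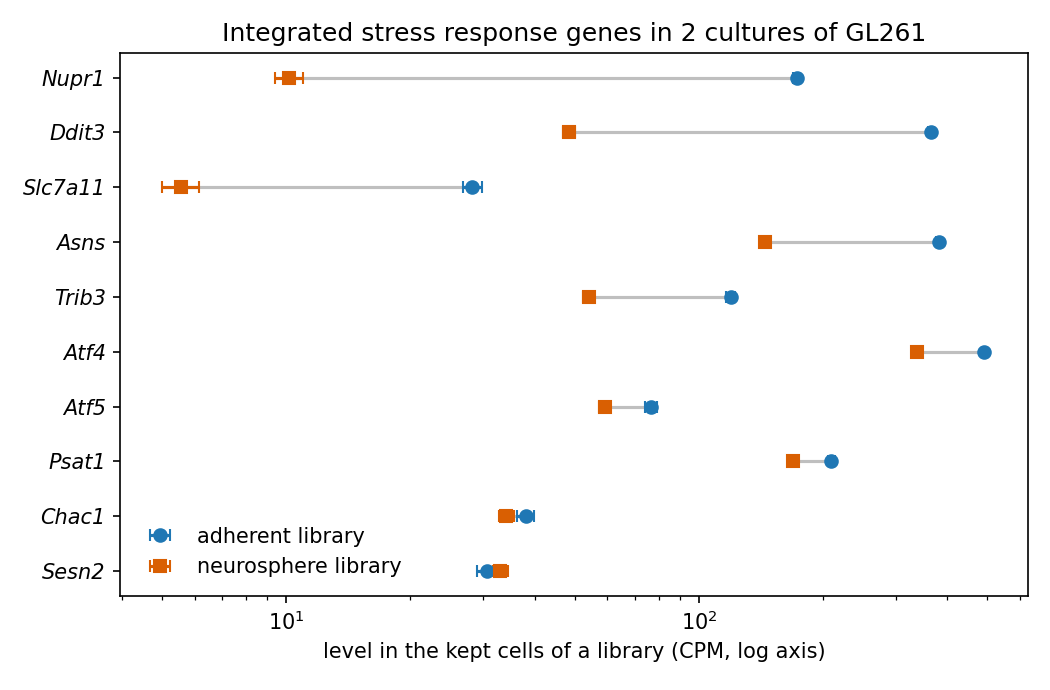
Level of each gene in the kept cells of the adherent library (circles) and the neurosphere library (squares), in CPM on a log axis, with exact 95% Poisson intervals that cover counting error only. Nupr1, Ddit3 and Slc7a11 have the widest gaps between the libraries, and for Sesn2 the squares and circles nearly meet.

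**Figure D2:**
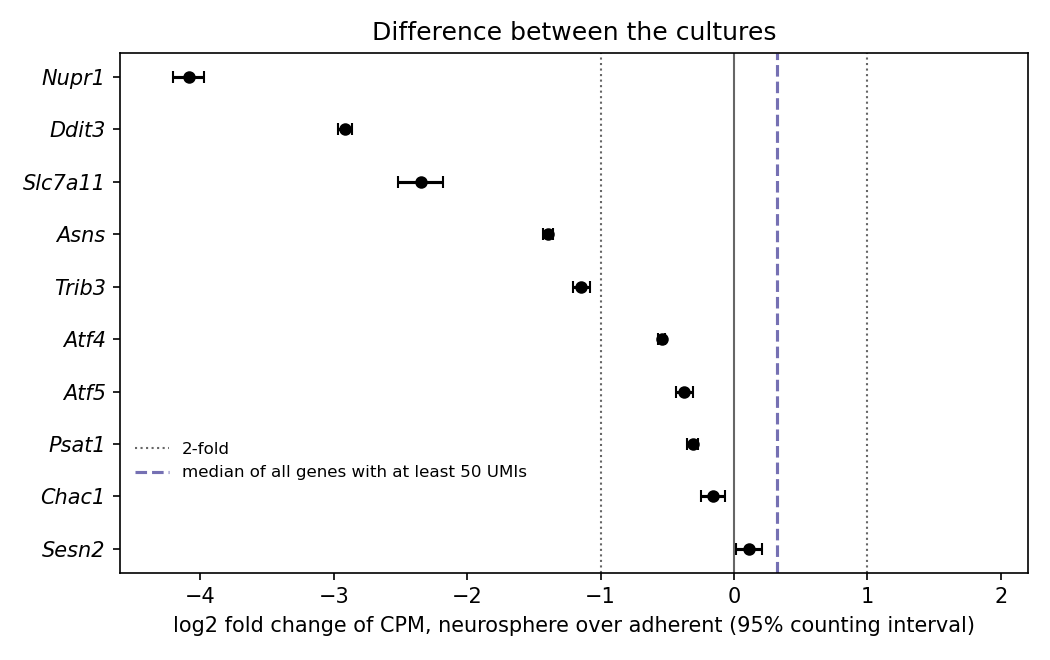
Log2 fold change of the CPM of each gene, neurosphere over adherent, with exact 95% counting intervals, for 1 library of each culture. The dotted lines mark 2-fold and the dashed line marks the median of all 14654 genes (0.32), to the left of which all 10 genes lie.

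Among the transcription factors, the gene at the end of the pathway differed far more than the one at its head. Atf4, whose control lies largely in translation, is found at 80255184 to 80257541 of chromosome 15, plus strand (GRCm38). It stood at 491 CPM in adherent cells (485 to 497 CPM) and at 337 CPM in neurosphere cells (333 to 342 CPM). The adherent level was the higher, and the log2 fold change was -0.54 (-0.57 to -0.52). The share of cells with an Atf4 UMI was 92.8% for adherent and 87.5% for neurosphere cells, and it was 87.2% and 69.9% once each cell was thinned to 5000 UMIs.

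Ddit3 encodes CHOP, a factor of the C/EBP family linked to cell death under lasting stress. The gene is found at 127290774 to 127296288 of chromosome 10, plus strand, and overlaps Mars and Gm4189 on the other strand. Ddit3 stood at 365 CPM in adherent cells (360 to 371 CPM, 16915 UMIs) and at 48.4 CPM in neurosphere cells (46.7 to 50.1 CPM, 3144 UMIs). It was 7.55-fold higher in adherent cells (7.27 to 7.84), a log2 fold change of -2.92 (-2.97 to -2.86), and 2.25% of all genes had a lower one. In thinned cells, Ddit3 was seen in 70.3% of adherent cells (68.9% to 71.6%) and 16.4% of neurosphere cells (15.3% to 17.6%), and in 81.6% and 34.4% of unthinned cells. The second identifier with this symbol, ENSMUSG00000116429, covers 127290829 to 127293753 of the same strand, inside the first. It had 0 UMIs in all called cells of both libraries, where a count of 0 allows up to 3 UMIs.

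Nupr1 encodes a small chromatin-associated protein that many stresses induce, and its gene is found at 126623249 to 126630861 of chromosome 7, minus strand. It stood at 172 CPM in adherent cells (169 to 176 CPM, 7985 UMIs) and at 10.1 CPM in neurosphere cells (9.39 to 11 CPM, 659 UMIs). This was the widest gap of the 10 genes, 17-fold (15.7 to 18.4), and only 104 of all 14654 genes had a lower log2 fold change than its -4.09 (-4.20 to -3.97). Nupr1 was seen in 42.7% of thinned adherent cells (41.3% to 44.2%) and in 3.17% of thinned neurosphere cells (2.66% to 3.75%), against 54.1% and 6.01% without thinning. Both libraries hold a single cell line, so there was no cell type without the gene to give the share that free RNA would leave.

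Atf5, another factor under translational control, acts in mitochondrial and proteotoxic stress and is found at 44812256 to 44816658 of chromosome 7, minus strand. It overlaps Nup62 and Il4i1 on the other strand. Its level was 76.5 CPM in adherent cells (74.0 to 79.0 CPM) and 59.1 CPM in neurosphere cells (57.2 to 61.0 CPM). The 2 levels were close, with a log2 fold change of -0.37 (-0.44 to -0.31), and thinned cells with a UMI made up 30.6% and 21.4%, against 45.2% and 41.9% unthinned.

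Trib3 encodes a pseudokinase that ATF4 and CHOP induce and that holds ATF4 back in turn. It is found at 152337422 to 152344032 of chromosome 2, minus strand. The adherent level was 119 CPM (116 to 123 CPM) and the neurosphere level 54.0 CPM (52.3 to 55.8 CPM). The gap was 2.21-fold (2.12 to 2.31), just past the fold used, with a log2 fold change of -1.14 (-1.21 to -1.08), which became -0.92 when the total kept mitochondrial and ribosomal UMIs. In thinned cells the shares were 41.4% and 18.8%, and without thinning 56.5% and 38.0%.

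The genes of amino acid supply differed from each other. Asns encodes asparagine synthetase and is found at 7675169 to 7693254 of chromosome 6, minus strand. Asns stood at 381 CPM in adherent cells (375 to 387 CPM) and 145 CPM in neurosphere cells (142 to 148 CPM), and its log2 fold change was -1.40 (-1.43 to -1.36). Its transcripts were seen in 82.6% of thinned adherent cells and 44.9% of thinned neurosphere cells, and in 91.2% and 71.3% of unthinned cells. Psat1, an enzyme of serine synthesis, is found at 15904678 to 15947337 of chromosome 19, minus strand. It stood at 209 CPM (205 to 214 CPM) and 169 CPM (166 to 172 CPM), and its log2 fold change was -0.31 (-0.35 to -0.27). Thus Asns passed the fold and Psat1 did not. Psat1 was seen in 63.4% and 50.6% of thinned cells, and the unthinned shares, 78.1% and 77.1%, had overlapping intervals (76.9% to 79.2% and 75.8% to 78.4%).

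Slc7a11 encodes the cystine and glutamate antiporter, which feeds glutathione synthesis, and is found at 49892526 to 50443614 of chromosome 3, minus strand. It was a gene of few UMIs, with 1308 in adherent cells (28.3 CPM, 26.7 to 29.8) and 360 in neurosphere cells (5.54 CPM, 4.99 to 6.15). The adherent level was 5.10-fold the neurosphere level (4.53 to 5.74), a log2 fold change of -2.35 (-2.52 to -2.18). Slc7a11 was seen in 11.9% and 2.17% of thinned cells and in 20.2% and 5.52% of unthinned cells.

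Chac1 and Sesn2 had the smallest differences. Chac1, an enzyme that breaks down glutathione, is found at 119351229 to 119354381 of chromosome 2, plus strand. Its level was 38.1 CPM in adherent cells (36.3 to 39.9 CPM) and 34.1 CPM in neurosphere cells (32.7 to 35.6 CPM). The log2 fold change was -0.16 (-0.25 to -0.07) and turned to 0.061 where mitochondrial and ribosomal genes stayed in the total. Sesn2, a leucine sensor that restrains mTORC1, is found at 132492032 to 132510501 of chromosome 4, minus strand, where Gm12981 overlaps it on the same strand. Sesn2 stood at 30.6 CPM (29 to 32.2 CPM) and 33.0 CPM (31.7 to 34.5 CPM). Its log2 fold change of 0.11 (0.01 to 0.21) was the only one above 0, and it turned to -0.11 with TMM scaling and to -0.041 in thinned cells. Thinned cells with a UMI of Sesn2 made up 13.9% and 12.6%, with overlapping intervals (12.9% to 14.9% and 11.6% to 13.7%), while unthinned shares ran the other way, at 22.3% and 29.7%. For Chac1 the shares were 15.8% and 12.2% thinned and 25.1% and 23.3% unthinned.

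The lower sum of neurosphere cells was also seen cell by cell. After thinning to 5000 UMIs, which 4464 adherent and 4196 neurosphere cells had, an adherent cell held a median of 9 UMIs of the 10 genes (quartiles 6 and 13) and a neurosphere cell a median of 3 (quartiles 2 and 6). The mean was 9.73 UMIs (SD 5.03 over cells) in adherent and 4.26 UMIs (SD 3.71) in neurosphere cells. The distributions overlapped. No UMI of any of the 10 genes was found in 8 adherent cells (0.179%) and in 312 neurosphere cells (7.44%), and at least 20 UMIs in 177 adherent (3.97%) and 25 neurosphere cells (0.596%). The median number of the 10 genes seen in a cell was 5 and 2, and 8 or more were seen in 128 adherent and 24 neurosphere cells.

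**Figure D3:**
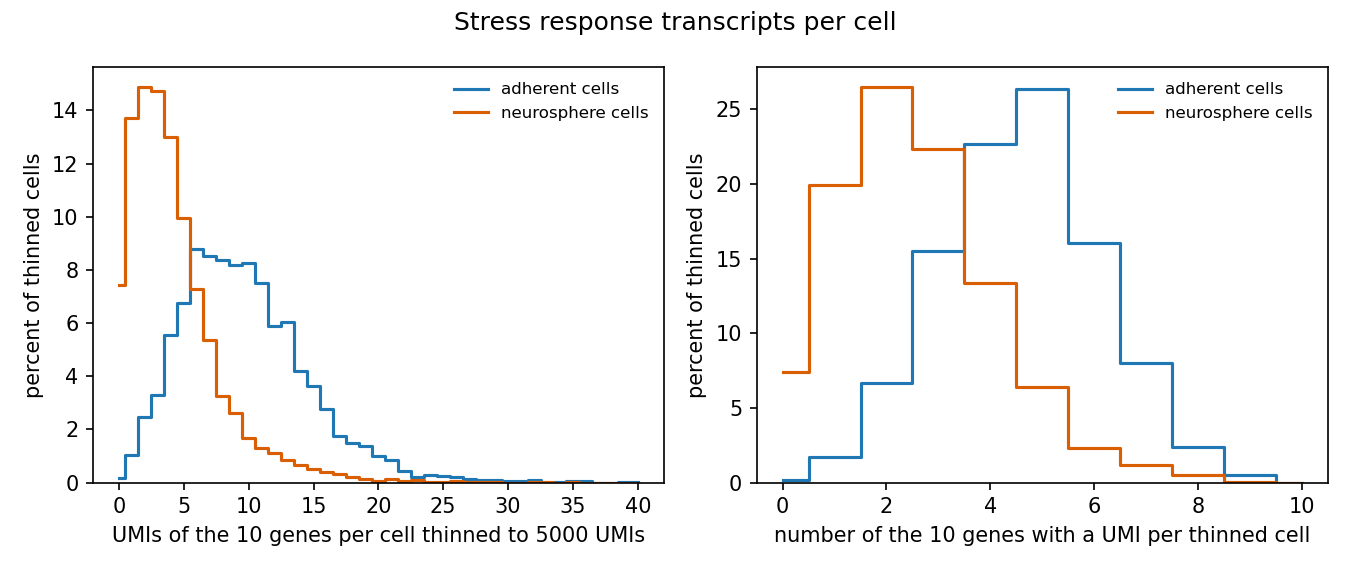
Percent of thinned cells (4464 adherent, 4196 neurosphere, 5000 UMIs each) by the UMIs of the 10 genes together (left, drawn up to 40 UMIs) and by how many of the 10 genes had a UMI (right). The neurosphere curves peak at lower values, with medians of 3 UMIs and 2 genes against 9 UMIs and 5 genes in adherent cells.

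For Nupr1, Slc7a11 and Ddit3, the remaining neurosphere transcripts sat in few cells. The top 1% of thinned neurosphere cells for Nupr1 (42 cells) held 62.9% of its UMIs, while the top 1% of adherent cells (45 cells) held 10.3%. For Slc7a11 these shares were 56.3% and 18%, and for Ddit3 28.7% and 8.12%. A gene seen in few cells has such a share for that reason alone, so the ratio of variance to mean was also taken. This ratio was 4.59 for Nupr1 in neurosphere cells and 2.41 in adherent cells, where 1 would be the spread of random counting. It was 4.08 and 3.13 for Ddit3, 2.12 and 1.27 for Slc7a11, and 1.79 and 1.38 for Atf4. Single cells carried part of these ratios, as seen when the cell with the most UMIs of a gene was left out, a check chosen after seeing the data. The ratio in neurosphere and adherent cells was then 3.39 and 2.36 for Nupr1, 3.33 and 2.83 for Ddit3, 1.35 and 1.19 for Slc7a11, and 1.77 and 1.37 for Atf4. For Slc7a11, 1 neurosphere cell held 10 of the 112 thinned UMIs. With or without the top cell, each of the 10 genes had a higher ratio in neurosphere than in adherent cells. In neurosphere cells without the top cell, Chac1 (1.64), Trib3 (1.43) and Atf5 (1.43) had higher ratios than Slc7a11. A single neurosphere cell reached 92 UMIs of Ddit3, 56 of Nupr1 or 45 of Slc7a11 before thinning, against 87, 45 and 8 in the highest adherent cells.

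Cells with many Ddit3 UMIs held more of most other genes, as a description within each library. Thinned cells were set apart by 0, 1 to 4 and 5 or more Ddit3 UMIs, which gave 1328, 2697 and 439 adherent and 3506, 659 and 31 neurosphere cells. Mean Nupr1 per cell was 0.550, 0.833 and 1.86 UMIs in adherent cells. In neurosphere cells it was 0.0348, 0.117 and 1.48 UMIs, so the 31 cells with most Ddit3 reached a mean of Nupr1 (interval 1.09 to 1.98) between those of the adherent cells with 1 to 4 and with 5 or more Ddit3 UMIs. Of the 46 Nupr1 UMIs in those 31 cells, 1 cell held 12, and the mean was 1.13 UMIs without it. Mean Trib3 was 0.464, 0.629 and 0.882 UMIs in adherent and 0.222, 0.378 and 1.48 UMIs in neurosphere cells. Atf4 followed with 2.09, 2.58 and 3.11 UMIs in adherent and 1.48, 1.95 and 3.10 UMIs in neurosphere cells. Psat1 had no such order, at 1.06, 1.05 and 1.05 UMIs in adherent cells and 0.781, 0.798 and 0.516 UMIs in neurosphere cells. In adherent cells Atf5 was no higher in the last group than in the middle one (0.304, 0.430 and 0.426 UMIs), while its neurosphere means were 0.262, 0.408 and 1.13 UMIs. Slc7a11 in the 31 neurosphere cells had 1 UMI in 1 cell or 3.23% of cells (0.0816% to 16.7%), too few to place it.

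Across cells, the 10 genes had low correlations with each other. Correlations are Pearson's r of log(1 + UMIs) over the thinned cells of 1 library, and cells share that library's free RNA and preparation. The median of the 45 pairs was 0.058 in adherent cells (-0.010 to 0.25, 41 pairs above 0) and 0.12 in neurosphere cells (-0.0059 to 0.25, 43 pairs above 0). On unthinned log-normalized values of the same cells the medians were 0.086 and 0.20, with highest pairs of 0.31 and 0.38. In thinned cells Ddit3 with Nupr1 was the highest pair in both libraries. Next came Atf4 with Ddit3 in adherent cells (0.16) and Atf4 with Trib3 in neurosphere cells (0.23). In counts this sparse, values of this size are no more than a description.

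**Figure D4:**
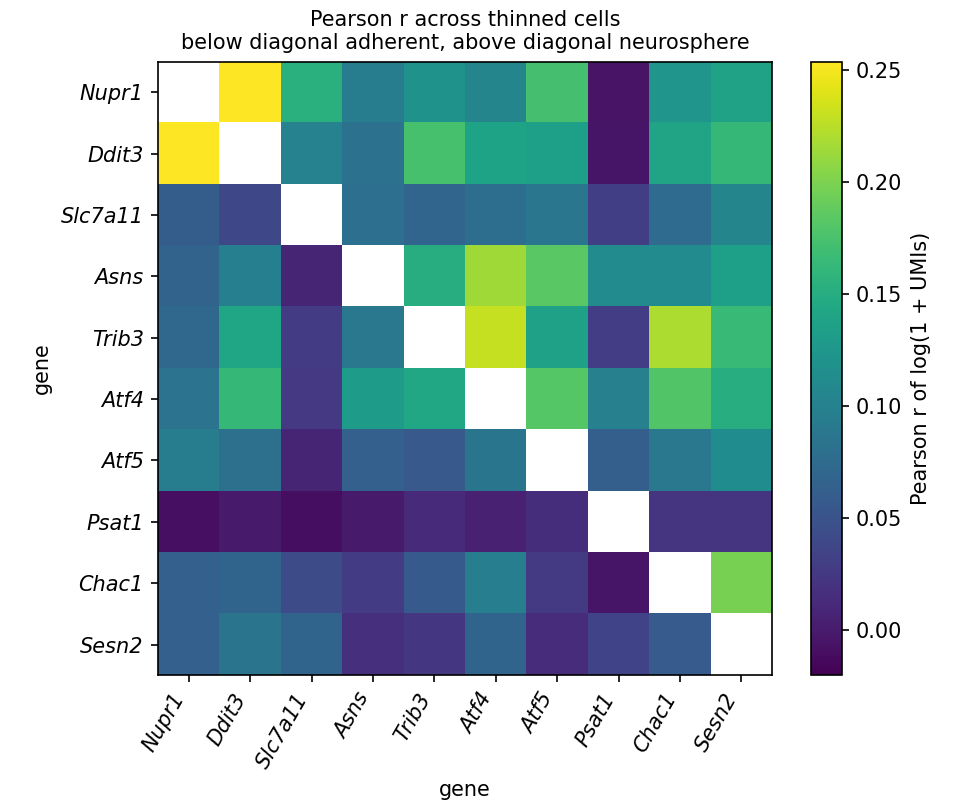
Pearson's r of log(1 + UMIs) for the 45 pairs of genes over 4464 thinned adherent cells (below the diagonal) and 4196 thinned neurosphere cells (above the diagonal), with color from the lowest to the highest r. Ddit3 with Nupr1 is the brightest square on both sides of the diagonal (0.25), and the squares of Psat1 are among the darkest.

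Each gene was also set against the mean score of the other 9. In adherent cells, Ddit3 had the highest r with them (0.26), followed by Atf4 (0.23) and Nupr1 (0.21). In neurosphere cells Atf4 came first (0.33), followed by Trib3 (0.31) and Sesn2 (0.28). Psat1 was the lowest in both, at 0.012 in adherent cells, where 2436 of 7954 other genes had a higher r with the same 9 genes, and at 0.084 in neurosphere cells, where 218 of 8731 did. Slc7a11 was next to lowest in both (0.073 and 0.18). For the remaining 8 genes, at most 53 other genes in adherent cells and 6 in neurosphere cells had a higher r with the other 9.

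Outside the 10 genes, the gene most like their mean score was the same in both cultures. Gdf15, a secreted stress cytokine and target of CHOP, had an r of 0.32 over adherent and 0.50 over neurosphere cells. Gadd45a (0.25 and 0.26), a growth arrest gene, and Eif4ebp1 (0.21 and 0.38), a repressor of cap-dependent translation, were the other 2 genes in the top 10 of both. The rest of the adherent top 10 were Hmox1, Sqstm1, Cth, Snhg1, Ero1l, G0s2 and Hspa5 (0.18 to 0.23). In neurosphere cells they were Mthfd2, Slc3a2, Eif1, Cebpb, Phf10, Phgdh and Aldh1l2 (0.26 to 0.35). Of all other genes, 99% had an r below 0.098 in adherent and below 0.13 in neurosphere cells.

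Gene lists were also set against the mean score of the 10 genes. For each list, the thinned UMIs of its genes were summed in each cell and taken on a log scale. Abundant genes therefore weigh most in a list. The list of other ATF4 and CHOP targets had an r of 0.43 in both libraries, amino acid and one-carbon synthesis 0.33 and 0.43, aminoacyl-tRNA synthetases 0.27 and 0.35, and amino acid transporters 0.24 and 0.37 in adherent and neurosphere cells. ER chaperones (0.044 and 0.042), hypoxia (0.0055 and 0.034) and dissociation stress genes (-0.047 and -0.0059) had values near 0. Between these lay NRF2 targets (0.15 and 0.21), bZIP partners of ATF4 and CHOP (0.12 and 0.16), p53 targets (0.075 and 0.15) and the eIF2α kinases, phosphatases and factors (0.064 and 0.20). The G2/M genes had opposite signs, -0.10 and 0.11, as did the UMIs of a cell before thinning, -0.085 and 0.12. Mitochondrial stress genes were near 0 in adherent cells (-0.025) and at 0.21 in neurosphere cells. The mitochondrial share had an r of -0.068 and -0.16. The part of depth and mitochondrial share in these values was not tested.

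Clusters were built within each library at a resolution of 1.0 without the 10 genes and the listed stress genes among the variable genes, which gave 11 adherent and 11 neurosphere clusters. They are given by number and leading genes, since both libraries are 1 cell line. In adherent cells, the 10 genes together ranged from 1514 CPM in cluster 7 (412 cells, led by 4930429F24Rik, 4933429H19Rik and Tex14) to 2465 CPM in cluster 2 (623 cells, led by Cd68, Mt3 and Spp1), a ratio of 1.63. Cluster 2 was the highest for Ddit3 (626 CPM), Nupr1 (324 CPM), Asns (454 CPM) and Trib3 (152 CPM). Cluster 9 (204 cells, led by Egflam, Vcan and Ly6a) was the lowest for Ddit3 (166 CPM) and Nupr1 (49.6 CPM), while its Atf4, 487 CPM, was close to that of the library. Cluster 10, with 48 cells, a median of 2623.5 UMIs and a mitochondrial share of 12.3%, rested on few UMIs of each gene. It had 90.5 CPM of Sesn2 (12 UMIs, 46.8 to 158 CPM) and 75.4 CPM of Slc7a11 (10 UMIs, 36.2 to 139 CPM), with intervals that overlapped those of the next highest clusters. Its Atf5 was 174 CPM (23 UMIs), its Asns 136 CPM (18 UMIs) and its Psat1 128 CPM (17 UMIs).

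In neurosphere cells, the sum ranged from 501 CPM in cluster 0 (613 cells, led by Comp, Pdzd2 and Ism1) to 1117 CPM in cluster 4 (432 cells, led by the mitosis genes Cdc20 and Plk1 with Arhgef39), a ratio of 2.23. All neurosphere clusters were below the lowest adherent cluster. Atf4 was lowest in cluster 0 (183 CPM) and highest in cluster 4 (496 CPM), and Asns likewise (63.6 and 178 CPM). Depth and mitochondrial share moved with this order in some clusters but not in all. Cluster 0 had a median of 7544 UMIs and a mitochondrial share of 4.83%, and cluster 5, with a sum of 694 CPM, had 8230.5 UMIs and 4.81%. Cluster 4 had 17718 UMIs and 3.29%, and cluster 8, with a sum of 1050 CPM, had 23091 UMIs and 3.03%. Against this order, cluster 3, with a sum of 1076 CPM, had a median of 11446.5 UMIs and a mitochondrial share of 4.59%. Cluster 6, with a sum of only 786 CPM, had 15650 UMIs and 3.92%. The part of either in the cluster levels was not tested. Ddit3, Nupr1 and Slc7a11 had another order. They stood highest in clusters 3 and 10, which were singled out after their values were seen. Cluster 3 (444 cells, led by Chit1, Spp1 and Wfdc3) had 146 CPM of Ddit3, 46.9 CPM of Nupr1 and 20.9 CPM of Slc7a11. It held 40.5% of the library's Nupr1 UMIs, 33.1% of its Slc7a11 UMIs and 26.5% of its Ddit3 UMIs, but 8.46% of its Atf4 UMIs. Of its 119 Slc7a11 UMIs, 1 cell held 45, and without that cell the level was 13.1 CPM (10.3 to 16.4 CPM) and the share of the library's UMIs 23.5%. Cluster 10 (121 cells, led by Ccl2, Nppc and Tnnt3) had 148 CPM of Ddit3, 45.1 CPM of Nupr1 and 13.8 CPM of Slc7a11. Of its 95 Nupr1 UMIs, 1 cell held 56, and the level was 18.7 CPM without it (13.3 to 25.6 CPM). These clusters were not alike for every gene, since Trib3 was highest of the 11 clusters in cluster 3 (80.7 CPM, 73.4 to 88.4 CPM) and lowest in cluster 10 (29.4 CPM, 22.5 to 37.7 CPM), where its interval overlapped those of clusters 0, 5 and 6. In the other 9 clusters, Ddit3 ranged from 22.5 to 43.4 CPM and Nupr1 from 2.63 to 10.6 CPM. For Ddit3, clusters 3 (137 to 157 CPM) and 10 (132 to 165 CPM) had intervals that overlapped that of the lowest adherent cluster (148 to 186 CPM). With the cell that held the most Ddit3 left out of each cluster, a check chosen after seeing the data, they no longer did, at 131 CPM (121 to 140 CPM) and 120.01 CPM (106 to 136 CPM) against 161 CPM (143 to 181 CPM). For Nupr1, the interval of cluster 3 overlapped that of the lowest adherent cluster with and without the top cells (37.5 to 48.4 CPM and 38.2 to 59.0 CPM without them). That of cluster 10 overlapped it only with its top cell. These intervals cover counting error only, and both genes varied more than that between cells. Overlap or its lack therefore does not settle which cluster was higher. At a resolution of 0.8, which gave 8 neurosphere clusters, the cluster led by Chit1, Spp1 and Wfdc3 was found again, with 148 CPM of Ddit3, 47.8 CPM of Nupr1 and 21 CPM of Slc7a11 (12.9 CPM without the cell with 45 UMIs). No cluster like cluster 10 was found there, and the cluster led by Wnt7b, Nppc and Prss56 (428 cells) had 64.6 CPM of Ddit3, 13.6 CPM of Nupr1 (8 CPM without its top cell) and 7.68 CPM of Slc7a11.

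**Figure D5:**
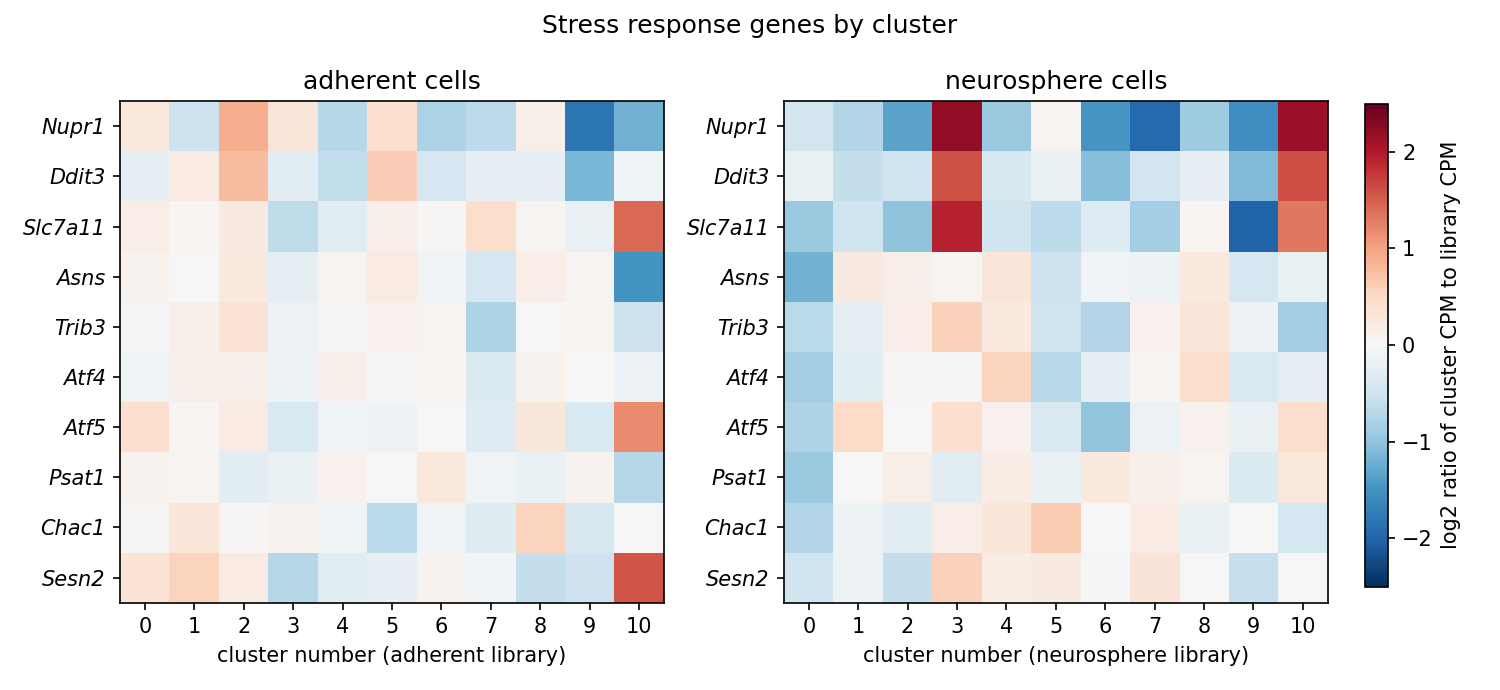
Log2 ratio of the CPM of each gene in a cluster to its CPM in all kept cells of that library, for the 11 adherent (left) and 11 neurosphere clusters (right), with red above and blue below the library. Nupr1, Ddit3 and Slc7a11 are red in neurosphere clusters 3 and 10, and Nupr1 and Ddit3 are reddest in adherent cluster 2.

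The other genes of the pathway were described by lists, in which a gene counts as measured with 50 or more UMIs summed over the libraries. Scaling moved these medians too, by 0.22 up or down, so those of 0.02, -0.06 and -0.09 have no fixed sign. It moved counts as well, and over all genes 16.1% were over 2-fold higher and 14.5% lower with TMM scaling, against 29.5% and 9.38% with the larger total that kept mitochondrial and ribosomal UMIs. Upstream of ATF4, the list of eIF2α kinases, phosphatases and eIF2 factors had a median log2 fold change of 0.02 over 17 genes. That of all genes was 0.32. In the list, 1 gene was over 2-fold higher and 1 lower, against 21.7% and 11.7% of all genes. The kinase genes Eif2ak1 (0.93) and Eif2ak3 (0.87), which encode the heme and ER stress sensors HRI and PERK, were among the 3 highest of the list. Being named for that rank, they do not speak for the other kinases. Impact, an inhibitor of the kinase GCN2, was over 2-fold higher (24.6 and 76.0 CPM, 1.63). Eif2s2, a subunit of eIF2, was over 2-fold lower (910 and 375 CPM, -1.28), and with the larger total Eif2ak1 (1.15) and Eif2ak3 (1.09) passed the fold as well, while Ppp1r15a, which directs the removal of the phosphate and is itself a target of the pathway, was at -0.77, and Eif2b3 of the exchange factor eIF2B at -0.61.

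The factors that pair with ATF4 and CHOP leaned lower, with a median of -1.16 over 13 genes, 8 of them over 2-fold lower and 1 higher. Batf3 (-2.56), Creb3l1 (-1.75) and Jdp2 (-1.33) were the lowest, and Creb3l2 (1.06, but 0.84 with TMM scaling), Jun (0.72) and Fos (0.70) the highest. With the larger total, 6 were lower. Other targets of ATF4 and CHOP had a median of -0.69 over 18 measured genes of 20, with 6 over 2-fold lower and 1 higher. Gdf15 stood at 318 CPM in adherent cells against 36.4 CPM (-3.12), Gadd45a at 148 and 26.6 CPM (-2.47), and Fgf21, a hormone gene with few UMIs, at 2.35 and 0.493 CPM (-2.26). Counts were 7 lower and 0 higher with TMM scaling, and 4 and 2 with the larger total. Bcl2l11 (1.10, 0.89 with TMM scaling), Vldlr (0.80) and Herpud1 (0.59) were the highest of the list.

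Amino acid and one-carbon synthesis genes had a median of -0.59 over 15 genes, 6 over 2-fold lower and 1 higher. Pck2 (89.4 and 15.1 CPM, -2.57), Cth (110 and 21.3 CPM, -2.36) and Phgdh (580.5 and 159 CPM, -1.86), the first enzyme of serine synthesis, were the lowest. Phgdh was thus over 2-fold lower where Psat1 of the same route was not. Glul, glutamine synthetase, was the highest at 1.31, followed by Shmt1 at 0.72. Of 20 aminoacyl-tRNA synthetases, 3 were over 2-fold lower (Nars -1.28, Sars -1.16, Lars -1.06), none was higher, and the median was -0.36. As 11.7% of all genes were over 2-fold lower, this count is near the background, and it was 5 with TMM scaling and 1 (Nars) with the larger total. Amino acid transporters, with 10 measured of 12, had a median of -0.06, with Slc1a5 (-1.08) the only one past the fold, which lost the call with the larger total (-0.86).

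The other arms of the ER stress response had a median close to that of all genes (0.32). ER chaperones and genes of the ATF6 and XBP1 branches had a median of 0.47 over 20 genes, with 3 over 2-fold higher, a smaller share than the 21.7% of all genes, and none lower. Ern1, the gene of the ER sensor IRE1, stood at 36.6 CPM in adherent cells against 270 CPM (2.88), Dnajb9 at 18.7 and 58.3 CPM (1.64), and Dnajb11 at 91.6 and 183 CPM (1.00). Dnajb11 lost the call with TMM scaling (0.78), which left 2 genes higher, and 4 were higher with the larger total. The chaperone genes Hspa5 and Hsp90b1 were both at -0.21 and Atf6 at -0.64. Mitochondrial stress genes had a median of -0.35 over 9 genes, with Hspe1 over 2-fold lower (-1.28), 3 lower with TMM scaling, and Dele1, which relays mitochondrial stress to HRI, at 0.51. NRF2 targets had a median of -0.67 over 11 genes, with 4 over 2-fold lower (3 with the larger total), led by Nqo1 (-2.12) and G6pdx (-1.64).

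Lists of other states had medians of 0.58 for p53 targets (9 measured of 10), 0.72 for hypoxia genes (10 of 11), 0.81 for dissociation stress genes (10 of 12), 0.65 for G1/S genes (20) and -0.09 for G2/M genes (20). Among the dissociation genes, Btg2 (2.53) and Egr1 (1.89) were higher and Ier3 (-2.51) lower in neurosphere cells, and the part of cell handling in the levels of the 10 genes was not tested. Astrocyte and glioma markers had a median of -0.43 over 8 measured of 10, from Slc1a3 (-2.20) to Olig2 (2.74).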

How the data were processed

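The authors deposited, for each of the 2 libraries, raw UMI counts per gene and barcode from Cell Ranger 7.0.1 on mm10 (10x Genomics 3' v3 chemistry), not normalized. Whether reads in introns were counted is not given in the sources used here. In all, 5764 adherent and 4951 neurosphere barcodes with 68531063 and 82832873 UMIs were deposited.

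Following the study's methods, 13 mitochondrial (mt-) and 101 ribosomal (Rps, Rpl) genes were removed, then cells under 1000 UMIs or under 1250 (adherent) or 2250 genes (neurosphere), which kept 5051 and 4276 cells. With cells filtered before genes, 5073 and 4300 cells were kept, the cell numbers the study gives. That order was an alternative. Doublets were not called, and leaving out cells over the 95th percentile of UMIs (253 and 214 cells) was an alternative. CPM used the UMIs on the genes left. Intervals at 95% were exact Poisson (CPM), conditional (fold changes) and binomial (shares). PCR copies are collapsed by UMIs, and the intervals cover counting error only. Since cells are not replicates, differences were not tested. Thinning drew 5000 UMIs from each cell and left out 587 adherent and 80 neurosphere cells. Clustering used Seurat 5.3.0 (R 4.3.3, 2000 variable genes, 17 and 18 PCs), TMM scaling edgeR 4.0.16, and the rest scipy 1.17.1, numpy 2.4.6, pandas 2.3.3 and matplotlib 3.10.9 (Python 3.11.15).

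The genes and the 16 related lists were chosen with earlier results of these data known. Named in the text are the 10 genes, genes from the 3 lowest and 3 highest fold changes of each list, the 10 genes in each library with the highest r (with a UMI in at least 5% of thinned cells), cell type markers and genes leading clusters. Positions come from GENCODE for GRCm38, where 32158 of 32285 identifiers matched, and promoter sequences from RefSeq for GRCm38.p6.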

Additional observations from a re-analysis of the deposited data

Results flagged for a closer look

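The barcodes that the quality filter left out also held transcripts of the 10 genes, which no comparison above used. In the 713 adherent barcodes left out, with a median mitochondrial share of 48.8%, the 10 genes together stood at 1742 CPM (1614 to 1878 CPM, 683 UMIs), and in the 675 neurosphere barcodes left out, with 87.0%, at 887.4 CPM (812 to 968 CPM, 510 UMIs). Nupr1 stood at 81.8 CPM (60.1 to 109 CPM, 47 UMIs) in the neurosphere barcodes left out and at 10.1 CPM in the kept neurosphere cells. Chac1 stood at 8.70 CPM there (2.82 to 20.3 CPM, 5 UMIs) and at 34.1 CPM in the kept cells. Nupr1 and Chac1 were singled out after their values were seen, and levels without the top barcode were not taken.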

How the results depend on the processing

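Of the 10 genes, 5 were over 2-fold lower and 0 over 2-fold higher under every alternative run, except that 4 were lower when the total kept mitochondrial and ribosomal genes (Trib3 at -0.92). Their median log2 fold change moved to -0.62 with those genes kept, -1.06 with TMM scaling, -0.95 in thinned cells, -0.91 without cells over the 95th percentile of UMIs and -0.96 as a mean over cells. Chac1 turned to 0.061 with those genes kept, and Sesn2 to -0.11 with TMM scaling and -0.041 in thinned cells. The first 2 changes of sign follow from the scaling, which shifts every gene by 0.22 up or by -0.22, and the cause of the third was not tested. Of all genes, 3181 were over 2-fold higher and 1711 lower, 2354 and 2128 with TMM scaling, 4325 and 1375 with mitochondrial and ribosomal genes kept, and 5491 and 4842 with no minimum of UMIs. The median r of the neurosphere pairs was 0.20 on unthinned values. The fold changes of all 10 genes were lowest with TMM scaling, and those of 9 genes (all but Nupr1) were highest with mitochondrial and ribosomal genes kept. All 40 shares of cells were lower in thinned than in unthinned cells. No paired analysis was possible because each culture has 1 library, and leaving out a replicate was not possible for the same reason. Depth limits what can be said of Slc7a11 and, in neurosphere cells, of Nupr1 in single cells and small clusters, such as the 10 Nupr1 UMIs of neurosphere cluster 9.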
